A study of Mus musculus with 6 samples.

Results

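The ectodysplasin pathway and the placode regulators around it were followed in RNA-seq counts from the embryonic mouse upper jaw. The set holds 7 genes, the ligand gene Eda, the receptor genes Edar and Eda2r, the adaptor gene Edaradd, the related receptor gene Tnfrsf19, and the transcription factor genes Foxi3 and Pitx1. They were listed by name for their part in tooth and whisker placodes, with earlier results of these data known, and the rule itself uses no measured value. Each matched 1 of the 53801 gene rows of the count tables, and all 7 were among the 17514 genes with enough counts to be tested.

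The tissue was the maxillary prominence, the facial swelling that forms the upper jaw, dissected at embryonic day 12.5 (E12.5). The strain label is C57BL/6, and the wild-type mice and the knock-in line are given as C57BL/6J. The 3 WT samples came from embryos labelled wild type, with no added allele named. The 3 Dlx2OE samples came from wnt1cre; Rosa26Dlx2/- embryos, in which Cre under the Wnt1 promoter removes a stop cassette in front of a Flag-tagged Dlx2 placed in the Rosa26 locus under the CAG promoter. The comparison asks how the RNA of the upper jaw differs when the homeobox gene Dlx2 is overexpressed in the neural crest lineage. No sample carried Cre alone or the Rosa26 cassette alone. An effect of Dlx2 therefore cannot be told apart here from an effect of the alleles themselves. The neural crest gives rise to most of the jaw mesenchyme, whereas the surface epithelium, where placodes form, is not a crest derivative. The labels give tissue of 7 littermates and the study's methods give 6, so each sample may be a pool. Every sample but WT sample 2 held RNA of both sexes, as given below, which tissue of a single embryo would not hold. The p-values below measure the spread between these samples.

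Placodes are thickenings of the surface epithelium from which teeth, hairs, whiskers and glands start. Ectodysplasin, a ligand of the tumour necrosis factor family, binds its receptor EDAR on placode cells, EDAR recruits the adaptor EDARADD, and the signal passes through TRAF and TAB proteins and the IkB kinase to the transcription factor NF-kB. Loss of ligand, receptor or adaptor gives the same syndrome in mouse and human, hypohidrotic ectodermal dysplasia, with missing or misshapen teeth, sparse hair and too few sweat glands.

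Among the 7 genes, 1 rose in Dlx2OE and 6 did not pass the test. Tnfrsf19 was 3.69-fold higher, from 51.0 ± 4.98 to 188.0 ± 75.7 CPM (SD, n = 3 samples per genotype). Edar, Foxi3 and Edaradd were highest in Dlx2OE sample 1, and neither Edar nor Foxi3 was high in Dlx2OE samples 2 and 3. Eda, Eda2r and Pitx1 had overlapping levels in the 2 genotypes. CPM is the count of a gene relative to all counts of its library, scaled by the TMM method. Values of single samples are given in the order of samples 1 to 3. A gene passed when its adjusted p in the edgeR quasi-likelihood test was below 0.05. Over all tested genes 6.45% passed, 2.99% with a higher and 3.46% with a lower level in Dlx2OE, so 1 of 7 is a single gene beside the rate of the whole table. With a log2 fold change beyond 1 as well, the thresholds of the study, 1.5% of the genes tested by edgeR were higher and 1.62% lower. These are 262 and 284 genes, and Tnfrsf19 was 1 of the former. The study applied its thresholds with DESeq2, which gave 452 genes higher and 442 lower when run here.

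The start regions of the 2 receptor genes with a match to a TCF/LEF motif, Edar and Tnfrsf19, are printed here. They are shown for that match, and Edar did not pass the test between genotypes. A link between motif and level was not tested. The sequences are the 250 bases upstream of RefSeq start sites on GRCm38.p6 (mm10 coordinates), read 5′ to 3′ on the gene's own strand. Capitals mark the letters ATCAAAG, or CTTTGAT where the match lies on the opposite strand. The Edar window is chr10:58675697-58675946 on the reverse strand and holds a match 233 to 227 bases upstream of the start. Tnfrsf19 has an upstream start, whose window chr14:61046856-61047105 on the reverse strand holds no match, and an internal start, whose window chr14:61037988-61038237 on the same strand holds a match 202 to 196 bases upstream.
Edar: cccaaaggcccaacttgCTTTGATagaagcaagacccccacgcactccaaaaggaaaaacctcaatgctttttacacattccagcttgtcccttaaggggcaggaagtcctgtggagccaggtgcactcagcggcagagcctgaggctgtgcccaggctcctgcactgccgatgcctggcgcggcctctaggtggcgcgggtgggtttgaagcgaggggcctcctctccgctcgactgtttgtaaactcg
Tnfrsf19 upstream start: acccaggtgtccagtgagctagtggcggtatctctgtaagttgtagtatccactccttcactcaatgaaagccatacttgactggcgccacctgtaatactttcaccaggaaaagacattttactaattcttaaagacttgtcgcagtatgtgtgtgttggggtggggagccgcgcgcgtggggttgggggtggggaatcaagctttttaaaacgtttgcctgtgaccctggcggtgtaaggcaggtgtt
Tnfrsf19 internal start: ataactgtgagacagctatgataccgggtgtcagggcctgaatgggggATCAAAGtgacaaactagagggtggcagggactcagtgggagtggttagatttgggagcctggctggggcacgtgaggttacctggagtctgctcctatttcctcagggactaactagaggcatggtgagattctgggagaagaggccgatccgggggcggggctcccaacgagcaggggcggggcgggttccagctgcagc

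RefSeq windows were found for 6 of the 7 genes, 7 windows in all. The TCF/LEF letters ATCAAAG were present on either strand in 2 of the 7 windows and in 3.21% of 32851 windows of the same length. A homeodomain core, TAATTA, was present in 0 of the 7 windows and in 4.84% of all windows. An NF-kB motif, GGGA followed by 2 bases of any kind and TTCC, was present in 0 of the 7 windows and in 1.21% of all windows. No 2 motifs overlapped, since the TCF/LEF letters alone matched. A match is a run of letters and does not show that a factor binds there.

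The 3 WT libraries held 30332754 to 31308813 counts on genes and the 3 Dlx2OE libraries 26155500 to 30570784, and a floor of 3 counts was 0.0955 to 0.111 CPM, which covers counting error only. Reads outside annotated exons made up 5.03% to 5.43% of the reads handled by the counting in WT, 5.75% in Dlx2OE sample 1, 7.82% in sample 2 and 14.7% in sample 3. Dlx2, the targeted gene, had 42.9, 35.0 and 45.2 CPM in WT and 119, 131 and 123 CPM in Dlx2OE. Every Dlx2OE sample lay above every WT sample. Of 11 mesenchyme markers 3 rose and 0 fell (0 and 0 without WT sample 1 or 2, 1 and 0 without Dlx2OE sample 2, 2 and 1 without Dlx2OE sample 1), and their summed level was 3788 to 4083 CPM in WT and 4267 to 4524 CPM in Dlx2OE. Of 6 tested markers of the neighbouring mandibular arch 0 passed (edgeR; 1 at an unadjusted p under 0.05, and 1 by DESeq2), with sums of 71.5 to 92.9 CPM in WT and 77.3 to 100.1 CPM in Dlx2OE. Summed neuron markers ran from 65.0 to 346.0 CPM in WT and from 192.5 to 1569 CPM in Dlx2OE.

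Surface epithelium is the tissue of the placodes, and the RNA of its markers was at unequal levels between samples. The 18 epithelium markers summed to 1065, 1860 and 1394 CPM in WT and to 2352, 775.1 and 802.0 CPM in Dlx2OE. By this sum Dlx2OE sample 1 was highest of the 6 samples, and samples 2 and 3 were lowest. The geometric mean of the markers was 44.7, 78.1 and 57.0 CPM in WT and 70.1, 28.7 and 29.5 CPM in Dlx2OE, so by that measure WT sample 2 was above Dlx2OE sample 1. In Dlx2OE sample 1 the basal keratin genes Krt5 and Krt14 alone had 537.6 and 489.6 CPM. Krt5 was also above the WT range of 42.7 to 91.7 CPM in Dlx2OE samples 2 and 3, at 120.5 and 147.2 CPM. It did not pass (log2 fold change 1.91, edgeR adjusted p = 0.0793). The log2 fold change was above 0 for 4 of the 18 markers and below 0 for 14, so the markers did not move together. Of the 18 markers 3 fell, the simple-epithelium keratins Krt8 (99.6 ± 37.0 to 23.1 ± 3.60 CPM) and Krt18 (74.8 ± 29.5 to 20.8 ± 7.06 CPM) and the tight junction gene Cldn7 (21.6 ± 7.92 to 7.39 ± 2.27 CPM), and 0 rose. Without Dlx2OE sample 1, 11 fell and 0 rose, and without WT sample 2, Dlx2OE sample 2 or Dlx2OE sample 3, 1 fell and 0 rose. In RNA of whole tissue, fewer cells of a type and less RNA per cell cannot be told apart.

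Per kilobase of exon, which allows genes to be compared with each other, Pitx1 had the highest WT level of the 7 genes at 29.9 ± 7.43 CPM per kb (SD, n = 3). Tnfrsf19 came next at 10.8 ± 1.05 CPM per kb. Foxi3 at 2.83 ± 0.760, Edaradd at 2.15 ± 0.224 and Eda at 2.00 ± 0.383 CPM per kb were neighbours whose samples overlapped, so their order is within the spread. Edar, at 0.986 ± 0.280 CPM per kb, lay below every WT sample of Eda. Eda2r was lowest at 0.330 ± 0.0416 CPM per kb, below every WT sample of Edar. In Dlx2OE the top of the order was reversed, with Tnfrsf19 at 39.7 ± 16.0 and Pitx1 at 23.8 ± 4.17 CPM per kb. The means of the other 5 genes ran from 3.93 ± 4.15 for Foxi3 to 0.295 ± 0.0230 CPM per kb for Eda2r. The place of Foxi3 rests on Dlx2OE sample 1 at 8.72 CPM per kb, since samples 2 and 3, at 1.34 and 1.73, lay below every Edaradd sample (2.44 to 3.61 CPM per kb).

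**Figure D1:**
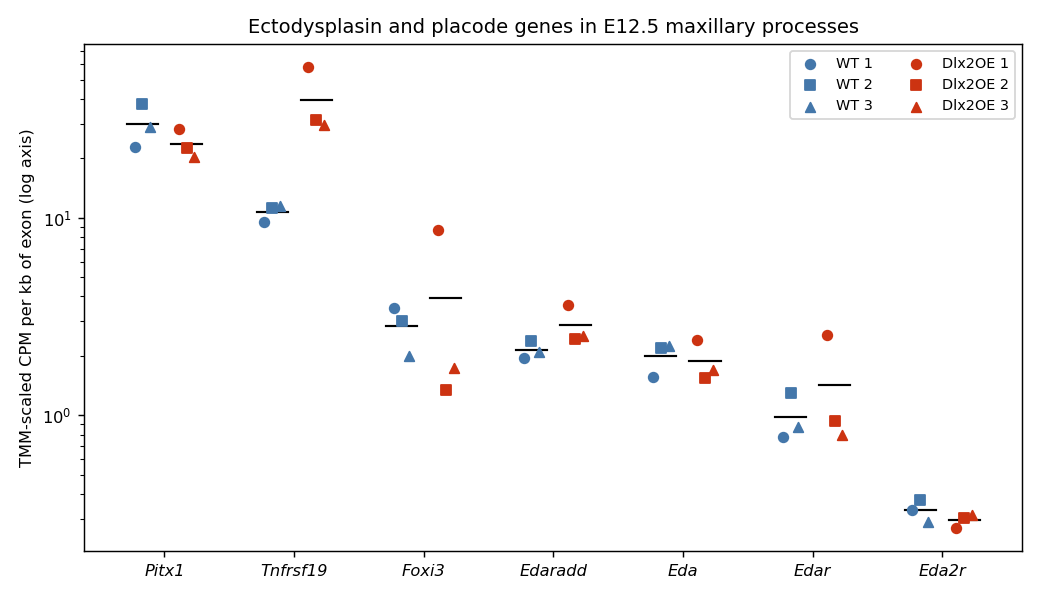
Level of each of the 7 genes in each sample, in TMM-scaled CPM per kilobase of exon on a log axis, with a symbol for each replicate and a black bar for the mean of 3 samples. Tnfrsf19 separates the genotypes, from 10.8 ± 1.05 in WT to 39.7 ± 16.0 CPM per kb in Dlx2OE, while Dlx2OE sample 1 stands above the other samples for Edar and Foxi3.

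Eda encodes the ligand, and lies on chromosome X from 99975606 to 100400762 on the forward strand (ENSMUSG00000059327; GENCODE M21, GRCm38), with 8 exons in its longest coding transcript. Its level was 10.6, 14.9 and 15.4 CPM in WT and 16.5, 10.6 and 11.6 CPM in Dlx2OE. The genotypes covered the same range. The means of 13.6 ± 2.61 and 12.9 ± 3.14 CPM (SD, n = 3) differed by -0.08 on the log2 scale with an SE of 0.223 and a 95% interval from -0.59 to 0.43 (edgeR, adjusted p = 0.825). Both ends of the interval lie within 1 log2 unit of 0. Furin, the protease that releases the ligand from the cell surface, is counted with the cascade below. Eda and Eda2r are both X-linked, and Xist, the RNA of the inactive X, was at 10.2 CPM in WT sample 2 and at 1070 to 2356 CPM in the other 5 samples. The Y-linked gene Ddx3y was at 81.1 CPM in WT sample 2 and at 16.1 to 62.0 CPM in the other 5 samples, which thus held RNA of both sexes. The part of the sex of the embryos in the levels of Eda and Eda2r was not tested.

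Edar encodes the ectodysplasin receptor of placode cells, and lies on chromosome 10 from 58600789 to 58675654 on the reverse strand (ENSMUSG00000003227), with 12 exons. Its level was 2.84, 4.75 and 3.18 CPM in WT samples 1 to 3. In Dlx2OE samples 1 to 3 it was 9.25, 3.41 and 2.88 CPM. Sample 1 of Dlx2OE stood above all other samples, and samples 2 and 3 lay within the WT range. The means of 3.59 ± 1.02 and 5.18 ± 3.53 CPM (SD, n = 3 each) gave a log2 fold change of 0.53 with an SE of 0.458 (edgeR, adjusted p = 0.461), and without Dlx2OE sample 1 the log2 fold change was -0.20.

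Edaradd encodes the adaptor that binds the death domain of EDAR, and lies on chromosome 13 from 12472632 to 12520438 on the reverse strand (ENSMUSG00000095105), with 6 exons. Its level was 13.1, 16.0 and 13.9 CPM in WT and 24.1, 16.2 and 16.9 CPM in Dlx2OE. The genotypes did not overlap, but WT sample 2 and Dlx2OE sample 2 were nearly equal. The log2 fold change was 0.41 with an SE of 0.185 and a 95% interval from -0.01 to 0.84 (edgeR, unadjusted p = 0.0555, adjusted p = 0.179), and it was 0.20 without Dlx2OE sample 1. Non-overlap was common, since the samples of the 2 genotypes did not overlap for 34.1% of all tested genes and for 2 of these 7, Edaradd and Tnfrsf19.

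Eda2r encodes a second receptor, which binds a different splice form of the ligand, and lies on chromosome X from 97333840 to 97377216 on the reverse strand (ENSMUSG00000034457), with 8 exons. It had 57, 66 and 53 counts in WT and 47, 56 and 50 counts in Dlx2OE, the lowest level of the set. The means were 1.95 ± 0.245 and 1.74 ± 0.136 CPM (SD over 3 samples). The log2 fold change was -0.16 with an SE of 0.239 and a 95% interval from -0.71 to 0.39 (edgeR, adjusted p = 0.674).

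Tnfrsf19, also known as Troy, encodes a receptor of the tumour necrosis factor receptor family that resembles EDAR and is expressed in developing skin and hair follicles. It lies on chromosome 14 from 60963875 to 61046490 on the reverse strand (ENSMUSG00000060548), with 10 exons in its longest coding transcript, and no other annotated gene overlaps its exons. It had 1326, 1603 and 1700 counts in WT and 8156, 4673 and 3792 counts in Dlx2OE. As CPM these are 45.3, 53.2 and 54.5 in WT and 275, 149 and 140.0 in Dlx2OE. The WT samples lay close together, every Dlx2OE sample was above all of them, and sample 1 was again the highest.

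The log2 fold change of Tnfrsf19 was 1.88 with an SE of 0.257 and a 95% interval from 1.29 to 2.47 (edgeR, adjusted p = 0.0116). By p it ranked 120 of the 17514 tested genes, and by fold change 137 of the 524 that rose. Leaving out Dlx2OE sample 1 lowered the log2 fold change to 1.49 and the gene still passed (edgeR, adjusted p = 0.00156). Without Dlx2OE sample 3, the library with the most reads outside exons, it was 2.06 (edgeR, adjusted p = 0.0124). The adjusted p was 0.0553 without WT sample 1 and 0.0730 without WT sample 2, with log2 fold changes of 1.80 and 1.91, so the call is lost there while the size is kept. DESeq2 gave an adjusted p of 7.99e-13.

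Foxi3 encodes a forkhead transcription factor that acts in tooth and hair placodes and has been placed downstream of ectodysplasin there. It lies on chromosome 6 from 70956531 to 70961066 on the forward strand (ENSMUSG00000055874), with 2 exons. WT samples held 131, 116 and 80 counts of it, and Dlx2OE samples 331, 54 and 60. In CPM, WT had 4.48, 3.85 and 2.57 and Dlx2OE had 11.2, 1.72 and 2.22. Dlx2OE sample 1 was the highest of all samples and samples 2 and 3 were the lowest, the widest spread within a genotype among the 7 genes relative to its mean. The log2 fold change was 0.47 with an SE of 0.666 and a 95% interval from -1.06 to 2.01 (edgeR, adjusted p = 0.659). Without Dlx2OE sample 1 the sign turned, to -0.89 with an SE of 0.316 (edgeR, adjusted p = 0.101).

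Pitx1 encodes a homeodomain factor of the oral epithelium and jaw mesenchyme, also known for its part in the hindlimb. It lies on chromosome 13 from 55825051 to 55836192 on the reverse strand (ENSMUSG00000021506), with 3 exons. Annotated exons of the antisense gene Gm47071 and of the lincRNA Gm28760 cover 10.28% of its exon sequence, and since the strand setting of the counting is not given in the sources used here, reads of this stretch cannot be assigned with certainty. The level was 60.8, 100.1 and 77.0 CPM in WT samples 1 to 3. In Dlx2OE samples 1 to 3 it was 75.3, 60.2 and 53.7 CPM. The genotypes overlapped, with means of 79.3 ± 19.7 and 63.1 ± 11.1 CPM (SD over 3 samples) and a log2 fold change of -0.33 with an SE of 0.196 (edgeR, adjusted p = 0.291).

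Over the 7 genes the log2 fold change was above 0 for 4 and below 0 for 3, with a median of 0.41 beside 0.0028 for all tested genes. That median rested on Dlx2OE sample 1, since it was -0.2 without that sample. It was 0.27 to 0.52 without any other single sample, and 0 with the replicate block. At an unadjusted p under 0.05 there was 1 gene of 7, and 29.5% of all tested genes were under that value. With 3 samples against 3, an exact permutation test of a single gene cannot give a two-sided p below 0.1.

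**Figure D2:**
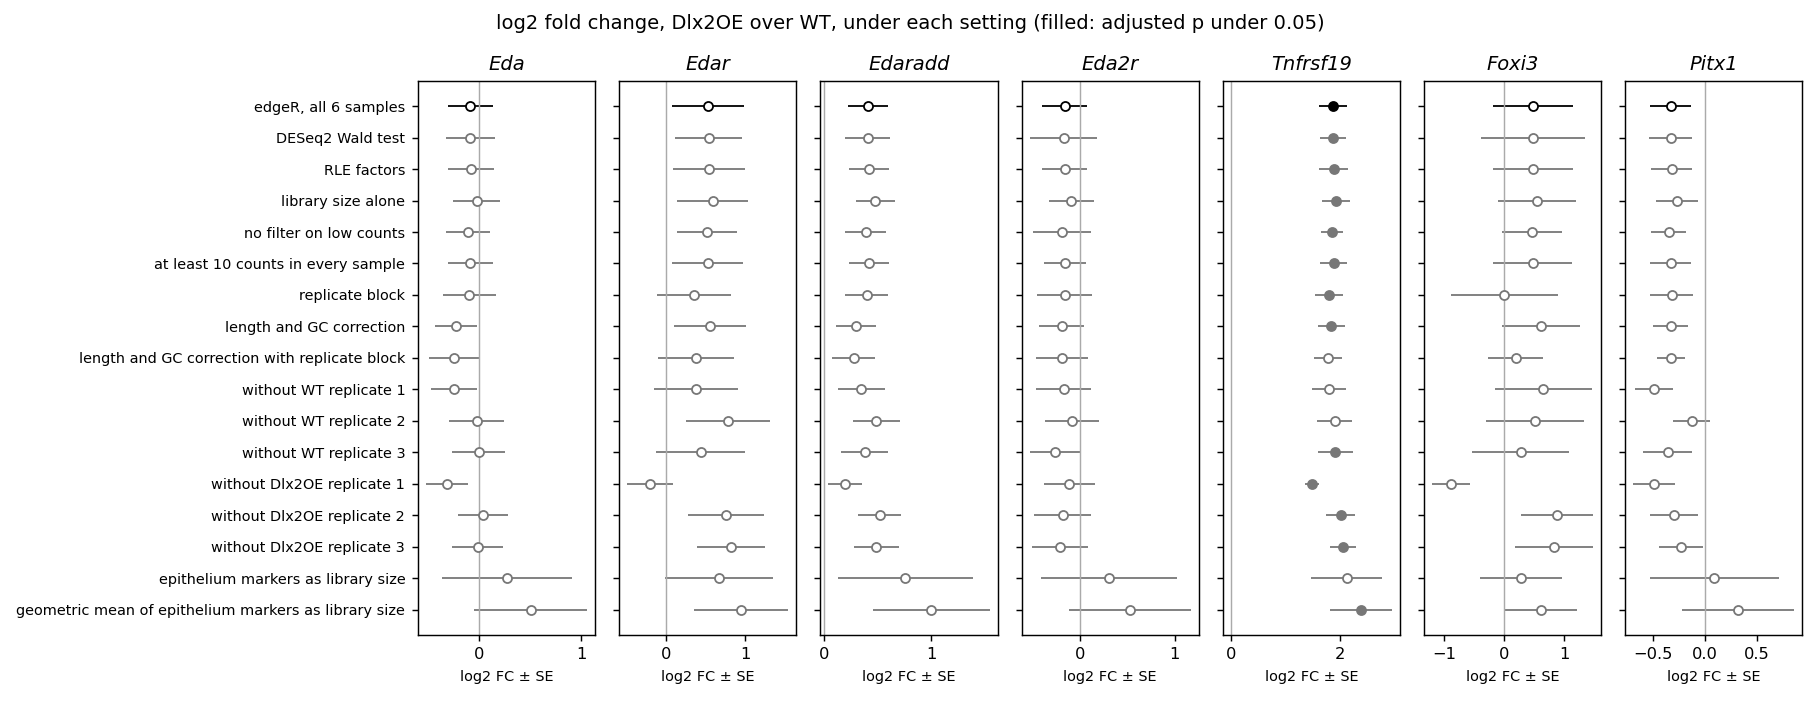
Log2 fold change of each gene, Dlx2OE over WT, with its SE under the chosen analysis and each alternative, where filled symbols have an adjusted p under 0.05. Tnfrsf19 stays between 1.49 and 2.39 throughout, whereas Edar and Foxi3 drop to -0.20 and -0.89 without Dlx2OE sample 1.

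The levels were next set beside the epithelium markers of the same sample, since Edar, Edaradd and Foxi3 are known as epithelial genes. Per 1000 CPM of summed epithelium markers, Edar was at 2.66, 2.55 and 2.28 CPM in WT and at 3.93, 4.40 and 3.59 CPM in Dlx2OE. On this scale Edar was higher in every Dlx2OE sample than in any WT sample, and sample 1 no longer stood apart. The same held when Edar was divided by the geometric mean of the markers, a measure added after the data were seen because Krt5 and Krt14 weigh heavily in the sum of Dlx2OE sample 1. Over all tested genes the genotypes did not overlap for 5.33% by the sum and for 9.12% by the geometric mean. When the marker sum was used as library size in edgeR, the log2 fold change of Edar was 0.67 with an SE of 0.682 (adjusted p = 0.899). With the geometric mean it was 0.95 with an SE of 0.600 (adjusted p = 0.403), so neither test passed. These scalings also raised the median log2 fold change of all tested genes, to 0.43 by the sum and 0.65 by the geometric mean. Much of the shift of Edar on these scales is thus shared by the whole table. By the marker sum 2 of the 7 genes did not overlap, Edar and Tnfrsf19, and by the geometric mean 3 did not, these and Edaradd.

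Tnfrsf19 per 1000 CPM of epithelium markers was at 42.5, 28.6 and 39.1 CPM in WT and at 117.0, 192.0 and 174.6 CPM in Dlx2OE. Here the order within Dlx2OE was changed, with sample 1 lowest of the 3 and still above all WT samples. Foxi3 was at 4.20, 2.07 and 1.84 CPM in WT and at 4.75, 2.22 and 2.76 CPM in Dlx2OE on the same scale. The genotypes of Foxi3 overlapped, and the high values of WT sample 1 and Dlx2OE sample 1 were close to each other. Edaradd was at 12.3, 8.58 and 9.99 CPM in WT and at 10.2, 21.0 and 21.1 CPM in Dlx2OE, with overlap by the sum and none by the geometric mean. Eda, Eda2r and Pitx1 overlapped on both scales. The part of the epithelial RNA share in these differences was not tested.

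**Figure D3:**
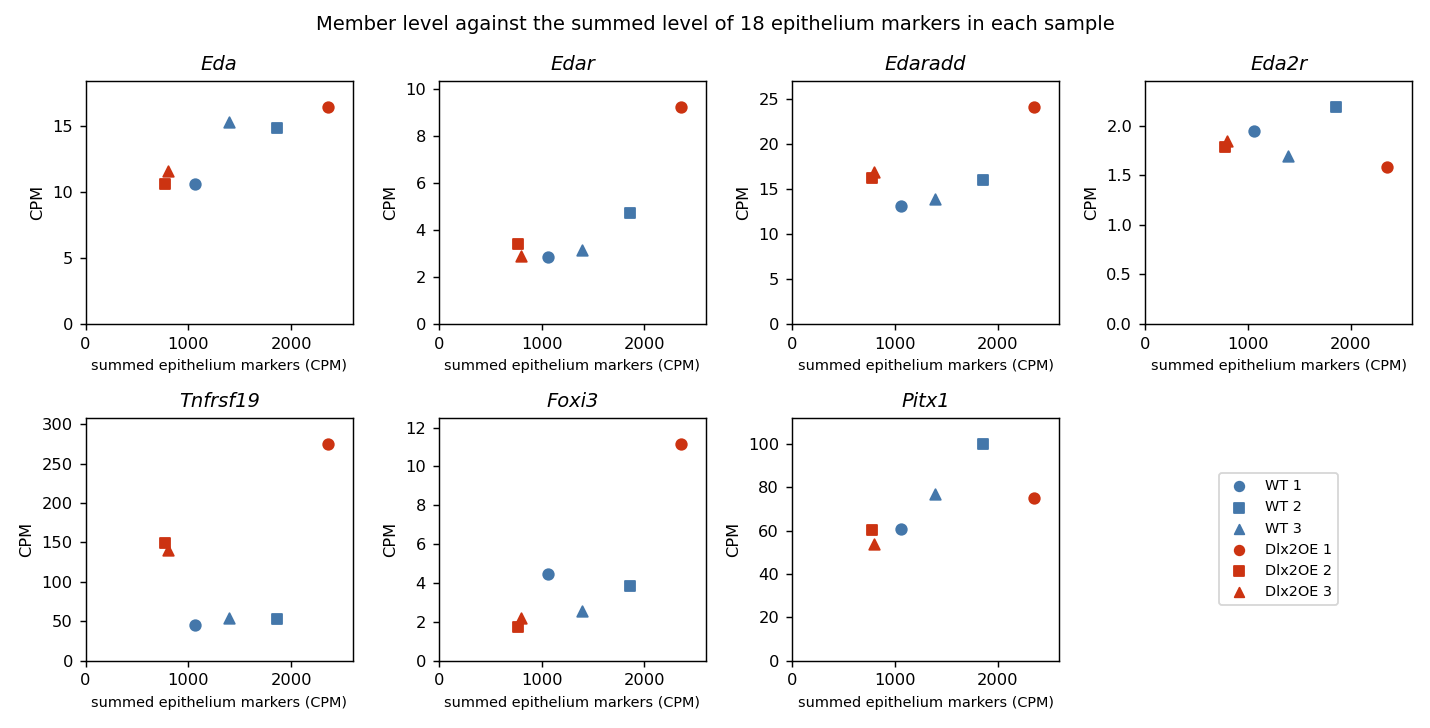
CPM of each gene against the summed CPM of 18 surface epithelium markers in the same sample, 1 panel per gene and 1 point per sample. Dlx2OE sample 1, at 2352 CPM of markers, is farthest to the right in every panel. Dlx2OE samples 2 and 3, at 775.1 and 802.0 CPM, are farthest to the left. The WT samples, at 1065 to 1860 CPM, lie between them, so no Dlx2OE sample has a marker sum within the WT range.

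The cascade from ectodysplasin to NF-kB was measured by 18 further genes, and 0 passed in either direction (edgeR). At an unadjusted p under 0.05 there were 3, and DESeq2 called 1 lower. The log2 fold changes were above 0 for 12 genes and below 0 for 6, with a median of 0.04. Tab2, an adaptor of the TAK1 kinase with the highest mean CPM of the list, not scaled for length, was at 156 ± 4.14 CPM in WT against 188 ± 10.4 CPM in the Dlx2OE samples (SD over 3 samples), a log2 fold change of 0.27 (edgeR, adjusted p = 0.106). Nfkbia, which encodes the inhibitor IkB-alpha and is itself a known target of NF-kB, was named after its values were seen. It had 43.4, 48.7 and 35.9 CPM in WT and 34.1, 26.6 and 26.3 CPM in Dlx2OE. The genotypes did not overlap, and the log2 fold change of -0.56 with an SE of 0.154 missed the threshold (edgeR, adjusted p = 0.0656). Without Dlx2OE sample 1, and also without WT sample 3, 1 gene of the cascade passed, with a lower level in Dlx2OE.

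Of 10 genes known as targets of EDAR signalling in placodes, 8 were tested, 1 fell and 0 rose, with a median log2 fold change of -0.13. The 1 that fell was Shh, the hedgehog ligand of placode epithelium. Its level was 16.8, 18.8 and 14.8 CPM in WT and 8.88, 4.97 and 6.54 CPM in Dlx2OE, with no overlap. The log2 fold change was -1.31 with an SE of 0.230 (edgeR, adjusted p = 0.0228). No target passed when WT sample 1, WT sample 2, Dlx2OE sample 2 or Dlx2OE sample 3 was left out, and with epithelium markers as library size, by sum or geometric mean, 0 fell and 1 rose. The genotypes also did not overlap for Shh per 1000 CPM of epithelium markers, with 10.1 to 15.8 CPM in WT and 3.77 to 8.15 CPM in Dlx2OE. Dkk4, a secreted Wnt inhibitor, had 42, 4 and 2 counts in WT and 289, 80 and 42 counts in Dlx2OE, with WT sample 1 equal to Dlx2OE sample 3 in counts, and it did not pass (log2 fold change 3.09, SE 1.08, edgeR adjusted p = 0.109). Lrp4, the target with the highest mean CPM over the 6 samples, a mean not scaled for length, was at 55.2 ± 6.96 and 69.5 ± 13.9 CPM (SD, n = 3 each; edgeR, adjusted p = 0.204). Cxcl10 and Cxcl11 had too few counts to be tested, and Cxcl11 had 0 counts in every sample.

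Among 32 further genes listed for tooth and whisker placodes, 29 were tested, 8 rose and 3 fell, with a median log2 fold change of 0.41. Over all tested genes 2.99% rose and 3.46% fell, and the list was chosen with earlier results of these data known. It was not limited to epithelial genes, and counts of whole tissue do not tell in which tissue a level changed. The paper describes Lef1 in epithelium and in the mesenchyme beside it. Lef1, a nuclear effector of Wnt signalling needed for tooth and whisker development, rose from 13.2 to 14.6 CPM over the WT samples to 104 to 161 CPM over the Dlx2OE samples (log2 fold change 3.23, edgeR adjusted p = 0.000493). The Wnt target Axin2 rose from 42.2 ± 6.28 to 144.1 ± 32.9 CPM (log2 fold change 1.77, edgeR adjusted p = 0.00552). The Wnt inhibitor Dkk1 rose from 6.71 ± 1.28 to 33.7 ± 14.9 CPM (log2 fold change 2.33, edgeR adjusted p = 0.0116). Sox2, a marker of dental epithelial progenitors, fell from 97.0 ± 22.9 to 30.5 ± 4.81 CPM (log2 fold change -1.67, edgeR adjusted p = 0.00844). The other genes that rose, named after their values were seen, were Msx2, Wnt7b, Wnt10b, Irx1 and Prdm1, with log2 fold changes of 1.69 to 2.63, and the others that fell were Pax9 at -1.10 and Fgf9 at -0.99. The Wnt co-receptor gene Lrp6, with the highest mean CPM over the 6 samples, again not scaled for length, was at 179 ± 33.9 and 214 ± 4.91 CPM and did not pass (edgeR, adjusted p = 0.256). The counts depend on single samples, with 2 rising and 2 falling without WT sample 1, 2 and 1 without WT sample 2, and 10 and 4 without Dlx2OE sample 1. With the epithelium marker sum as library size 5 rose and 0 fell, and with the geometric mean 10 rose and 0 fell. These scalings moved the median log2 fold change of all tested genes to 0.43 and 0.65, and do not show which tissue holds the RNA.

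**Figure D4:**
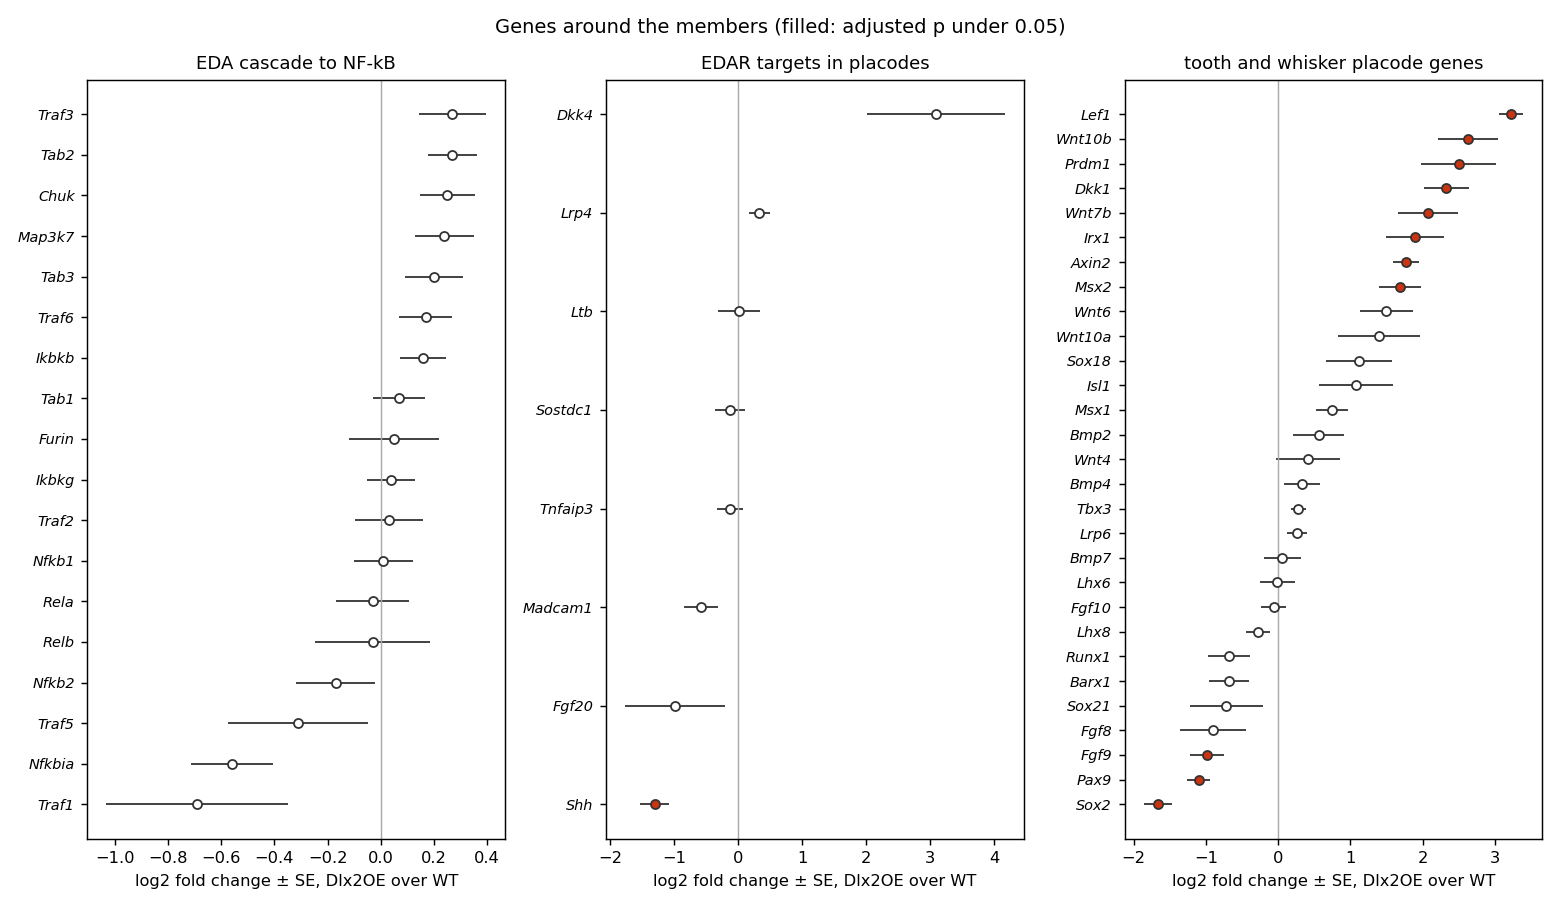
Log2 fold change, Dlx2OE over WT, with its SE for the cascade to NF-kB, the EDAR targets and the list for tooth and whisker placodes. Filled symbols have an adjusted p under 0.05. The 18 cascade genes run from Traf1 at -0.69 to 0.27 and none is filled. Shh at -1.31 is the filled EDAR target. The tooth and whisker list, not limited to epithelial genes, spreads from Sox2 at -1.67 to Lef1 at 3.23.

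The paralogs of Foxi3 were also examined. Foxi2, the paralog of Foxi3 with reads in these libraries, had 1, 2 and 1 counts in WT and 43, 26 and 23 counts in Dlx2OE. It met the count filter only through the Dlx2OE samples, so the test could not have shown a fall. Its pass (edgeR, adjusted p = 0.00844) is therefore not used as support. Foxi2 was not tested when 10 counts were required in every sample. It did not pass with the length and GC correction plus the replicate block. The summed counts, scaled by library, stood in a ratio of 23.7 with a 95% exact counting interval from 8.93 to 88.6. This interval covers counting error only and not the spread between samples. Foxi1 had 0 counts in every sample.

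The 2 genes whose profile over the 6 samples was most like that of Tnfrsf19 were Glis3 and Irx3, among 14744 protein-coding genes. The measure was the root-mean-square difference of log2 CPM centred on each gene's mean, 0.127 for Glis3 and 0.139 for Irx3. Glis3, a zinc finger transcription factor, rose from 9.54 ± 0.955 to 39.6 ± 12.2 CPM (SD, n = 3 each), and Irx3, an Iroquois homeobox factor, rose from 17.4 ± 0.970 to 74.8 ± 27.7 CPM. Both were highest in Dlx2OE sample 1, as Tnfrsf19 was, and both passed (edgeR, adjusted p = 0.00629 and 0.00808). Since both were picked for likeness to Tnfrsf19 in these same 6 samples, their rise and peak follow from the choice. They are no separate support.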

How the data were processed

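RNA of E12.5 maxillary prominences was sequenced after poly-A selection in 3 WT and 3 Dlx2OE samples, grouped by the sample labels. The authors aligned reads to mm10 with STAR 2.7.3a and counted them per gene with HTSeq 0.12.4, and deposited raw counts. The annotation release and strand setting are not given in the sources used here. Symbols and positions came from GENCODE M21 (53706 of 53801 identifiers).

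Counts were tested with the quasi-likelihood F test of edgeR 4.0.16 (R 4.3.3), with TMM scaling, filterByExpr and Benjamini-Hochberg adjustment over 17514 genes. The alternatives were DESeq2 1.42.0, other scalings and filters, a loess correction for length and GC content (span 0.5), a replicate block, epithelium markers as library size and removal of each sample. The geometric mean of those markers was added after the data were seen. The SE of an edgeR log2 fold change was derived from its test, as its absolute value divided by the square root of the F statistic. Intervals of fold changes use this SE and the moderated degrees of freedom. The fits were tested on simulated data.

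The genes and lists were chosen with earlier results of these data known. Named were the 7 genes, up to 4 genes per list that passed, by p, the gene of each list with the highest mean CPM over all samples, and the 2 genes nearest to each of the 7 that passed. Marker genes of glia, muscle, endothelium, erythroid cells and sex were also counted. Promoters came from RefSeq. Some genes that this rule selects are left out here. Figures were drawn with matplotlib 3.10.9.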

Additional observations from a re-analysis of the deposited data

How the results depend on the processing

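Tnfrsf19 kept its direction under every alternative run, with log2 fold changes from 1.78 to 2.39, and from 1.49 to 2.06 when each sample was left out. Its call was lost with the length and GC correction plus the replicate block (1.78) and with the epithelium marker sum as library size (2.13), beside the removal of WT sample 1 or 2. With the replicate block alone Tnfrsf19 passed at 1.81 (edgeR, adjusted p = 0.0309). Same-numbered samples did not deviate together (r = -0.072, -0.211 and 0.073), and the highest r was 0.345, for WT sample 1 with Dlx2OE sample 2. With 3 samples per genotype, this check gave no sign of pairing by number but cannot exclude it. The number of the 7 genes passing was 1, and 0 with the length and GC correction plus the block, with a range of 0 to 1 when single samples were left out and 0 with the epithelium sum.

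Signs turned for genes that did not pass. Eda was at 0.28 with the epithelium marker sum and 0.51 with the geometric mean as library size, and ranged from -0.31 to 0.04 without single samples. Eda2r was at 0.31 and 0.53 and Pitx1 at 0.09 and 0.32 under the same 2 scalings, which moved the median of all genes to 0.43 and 0.65. Edar ranged from -0.20 to 0.82 and Foxi3 from -0.89 to 0.88 without single samples. The cause was not tested.

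Of all tested genes, 1130 passed, 2459 with DESeq2, 2044 without a filter, 961 with the block, 80 with the length and GC correction plus the block, and 79 to 2091 without single samples. Depth limits Eda2r most, with 47 to 66 counts per sample.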

Other observations

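Of the 7 tested glia markers 0 passed (edgeR; 1 at an unadjusted p under 0.05, 0 by DESeq2), and Foxd3 had 0 counts in every sample; without Dlx2OE sample 1, 2 rose. Of 10 neuron markers 0 passed (edgeR; 4 at an unadjusted p under 0.05, 1 by DESeq2), with a median log2 fold change of 1.86 and the highest sum, 1569 CPM, in Dlx2OE sample 3. Without Dlx2OE sample 1, 5 neuron markers rose, with the replicate block 2, and with the epithelium marker sum or geometric mean as library size 6 or 9. Of 9 muscle markers 0 passed (edgeR; 3 at an unadjusted p under 0.05, 1 by DESeq2), with a median of -0.85. Of 8 endothelium markers 1 fell, Emcn at -0.97, and 0 fell without WT sample 1, WT sample 2, Dlx2OE sample 2 or Dlx2OE sample 3. Of 7 erythroid markers 2 fell, Alas2 at -0.86 and Hba-a1 at -0.85, and Hba-a1 shares near-identical sequence with a second alpha-globin gene, so its count is uncertain. Of the erythroid markers 0 fell without WT sample 1, WT sample 2, Dlx2OE sample 2 or Dlx2OE sample 3. Of 5 sex-linked genes 0 passed (edgeR; 0 at an unadjusted p under 0.05, 0 by DESeq2). The mesenchyme markers that rose were Twist2 at 1.69, Alx4 at 1.39 and Twist1 at 0.65.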
